A study of Mus musculus with 8 samples.

Results

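The genes described here are 48 cell cycle and DNA replication genes, taken by symbol from the 49212 genes counted in every library, and all 48 passed the filter on low counts in every comparison. They were measured by RNA-seq of CD44+ effector Treg (eTreg) cells, sorted as CD45+ CD3+ CD4+ YFP+ cells from the spleen and from the tumor (tumor-infiltrating lymphocytes, TIL). The 4 groups of 2 libraries were KO TIL, WT TIL, KO spleen and WT spleen. WT mice carried FoxP3YFP-Cre alone, and KO mice carried FoxP3YFP-Cre together with Prdm1 fl/fl, on the C57BL/6 strain in both cases. The mice of every group bore B16.OVA, a melanoma line that expresses ovalbumin, and were immunised with NP-OVA, first with CFA on day 0 and again with IFA on day 7, and cells were taken when tumors were at most 1.5 cm3. The Cre is expressed from the Foxp3 locus, so Prdm1, the gene of Blimp1, is deleted in cells that express or have expressed Foxp3 and not in other cells of the mouse. Per the study's methods, CD4 microbeads enriched the splenic cells ahead of the sort, while tumors were digested with enzymes and spun on a density gradient, so tissue and preparation cannot be told apart. The study's methods give a single age range for all its mice, in weeks, and the labels give neither an age nor the number of animals behind a library, so p-values measure the spread between these libraries only.

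Cells enter the cycle when D and E cyclins with Cdk4 and Cdk2 release E2F transcription factors, which switch on the genes of DNA synthesis. The G2 and M genes are switched on later, as cells prepare to divide, through a promoter element called the CHR together with CCAAT boxes. CDK inhibitors hold the kinases back, and effector Treg cells in tissue and tumor are known to divide more than resting Treg cells in lymphoid organs.

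The genes of DNA synthesis and those of mitosis carried different letters in their promoters, and 3 promoters are printed because they stand for the groups that the results below turn on. Windows of 300 bases (250 before to 50 after the start of transcription, RefSeq, GRCm38.p6) were found for 41 of the 48 genes, as 47 windows. In 9 of these windows, 3 of S phase genes and 6 of G1, E2F and inhibitor genes (E2f1 and Cdkn1a among them), transcription starts over 250 bases inside the 5′ end that the count files give the gene, so they stand for shorter transcripts and none of them is printed. Capitals mark the searched letters on either strand. The CHR was searched as TTTGAA, with TTCGAA as its variant form. The box was searched by the letters in its name. The E2F site was searched as TTTGGCGC, TTTCGCGC, TTTCCCGC or TTTGCCGC. Bub1, at chr2:127831810-127832109 on the minus strand, and Ccnb2, at chr9:70421505-70421804 on the minus strand, are mitotic genes with CHR letters and CCAAT letters. Mcm6, at chr1:128359656-128359955 on the minus strand, is a replication gene with 3 E2F matches on the 2 strands, of which 2 overlap.
Bub1: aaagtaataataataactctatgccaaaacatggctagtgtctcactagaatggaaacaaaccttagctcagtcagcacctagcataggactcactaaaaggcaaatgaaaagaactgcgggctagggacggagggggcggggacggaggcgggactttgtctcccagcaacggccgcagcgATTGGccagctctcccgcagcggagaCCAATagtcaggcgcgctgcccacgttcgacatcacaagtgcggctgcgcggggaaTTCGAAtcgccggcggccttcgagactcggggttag
Ccnb2: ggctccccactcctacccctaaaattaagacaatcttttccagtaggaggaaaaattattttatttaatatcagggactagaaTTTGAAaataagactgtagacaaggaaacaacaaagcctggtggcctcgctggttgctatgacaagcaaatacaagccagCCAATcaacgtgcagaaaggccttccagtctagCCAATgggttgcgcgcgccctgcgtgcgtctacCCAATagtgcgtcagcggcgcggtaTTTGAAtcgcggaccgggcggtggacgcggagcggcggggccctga
Mcm6: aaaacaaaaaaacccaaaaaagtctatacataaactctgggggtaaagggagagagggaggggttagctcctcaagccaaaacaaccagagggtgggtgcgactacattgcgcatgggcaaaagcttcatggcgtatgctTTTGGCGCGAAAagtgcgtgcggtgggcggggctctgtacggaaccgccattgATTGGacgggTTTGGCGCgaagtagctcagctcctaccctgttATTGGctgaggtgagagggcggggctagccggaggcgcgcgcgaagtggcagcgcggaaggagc

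CHR letters were in 15 of the 19 windows of G2 and M genes (78.9%), in 3 of the 14 windows of S phase genes (21.4%) and in 19.2% of all 32851 windows. E2F letters showed the reverse order, with 6 of 14 windows of S phase genes (42.9%), 1 of 19 windows of G2 and M genes (5.26%) and 2.26% of all windows. CCAAT letters were in 89.5% of the G2 and M windows, 71.4% of the S phase windows and 37.4% of all windows. A window with both CHR and CCAAT letters was found for 78.9% of the G2 and M windows and 7.52% of all windows. These matches describe the letters of a window, and factor binding was not measured.

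Levels are given as CPM, in which counts are set relative to library sizes that the TMM method adjusted over the 8 libraries, and a level is compared between genes only as CPM per kb of exon. Libraries held 27834676 to 43903859 counts on genes, at which 3 counts, the floor used here, equal 0.0644 to 0.112 CPM. Every one of the 48 genes lay above that floor in every library. Replicates of a group differed by more than sampling noise (chi-square of 37.2 to 344 per degree of freedom). Prdm1, the targeted gene, was at 90.7 and 75.1 CPM in KO TIL, 108.4 and 192.1 CPM in WT TIL, 40.7 and 53.4 CPM in KO spleen, and 54.1 and 21.0 CPM in WT spleen. The KO libraries were the lower ones in TIL (log2 fold change -0.86, SE 0.37, adjusted p = 0.554 by edgeR) and the genotypes overlapped in spleen, so the level of this gene, summed over all exons, does not settle the labels. Foxp3, the defining gene of the sort, was at 10.2 and 2.99 CPM in KO TIL, below the 25.5 and 60.5 CPM of WT TIL and the 43.1 to 69.7 CPM of the splenic libraries.

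Transcripts that mark other cell types were present in the TIL libraries, and their part in the values below was not tested. For CD8 genes, and for the natural killer (NK) cell genes given below, bulk RNA cannot tell other cells from the sorted cells as the source. The summed level of 6 melanoma genes was 3201 and 830.1 CPM in KO TIL and 2078 and 1140.1 CPM in WT TIL, against 3.69 to 6.74 CPM in spleen, where 2 to 4 of the 6 were at 0. The sum of 7 macrophage genes was 14542 and 1652 CPM in KO TIL, 3080 and 528 CPM in WT TIL and 284 to 2120 CPM in spleen, with none at 0. Cd8a and Cd8b1, the defining genes of CD8 T cells, summed to 406 and 2222 CPM in KO TIL, 148 and 48.3 CPM in WT TIL and 15.04 to 30.7 CPM in spleen. In sorted bulk RNA, fewer cells in cycle and less of each transcript per cell cannot be told apart.

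Most of the 48 genes were higher in TIL than in spleen, and within TIL they differed more between replicates than between genotypes. Summed over all of them, the level was 4688 and 8917 CPM in the KO TIL replicates, 7801 and 3477 CPM in the WT TIL replicates, 3187 and 2427 CPM in KO spleen, and 2897 and 2369 CPM in WT spleen. All TIL libraries lay above all splenic libraries, and the highest library of each TIL genotype lay above the lowest library of the other. In KO TIL, replicate 2 was above replicate 1 in 46 of the 48 genes, by a median of 2.18-fold, while 49.5% of all genes kept by the filter were higher in replicate 2. In WT TIL the order was turned, with replicate 2 below replicate 1 in 46 of 48 genes, by a median of 2.81-fold, while 49.5% of all genes were higher in replicate 2. The exceptions were Cdkn1a and Cdk2 in KO TIL, and Cdkn1b and Ccnd2 in WT TIL.

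**Figure D1:**
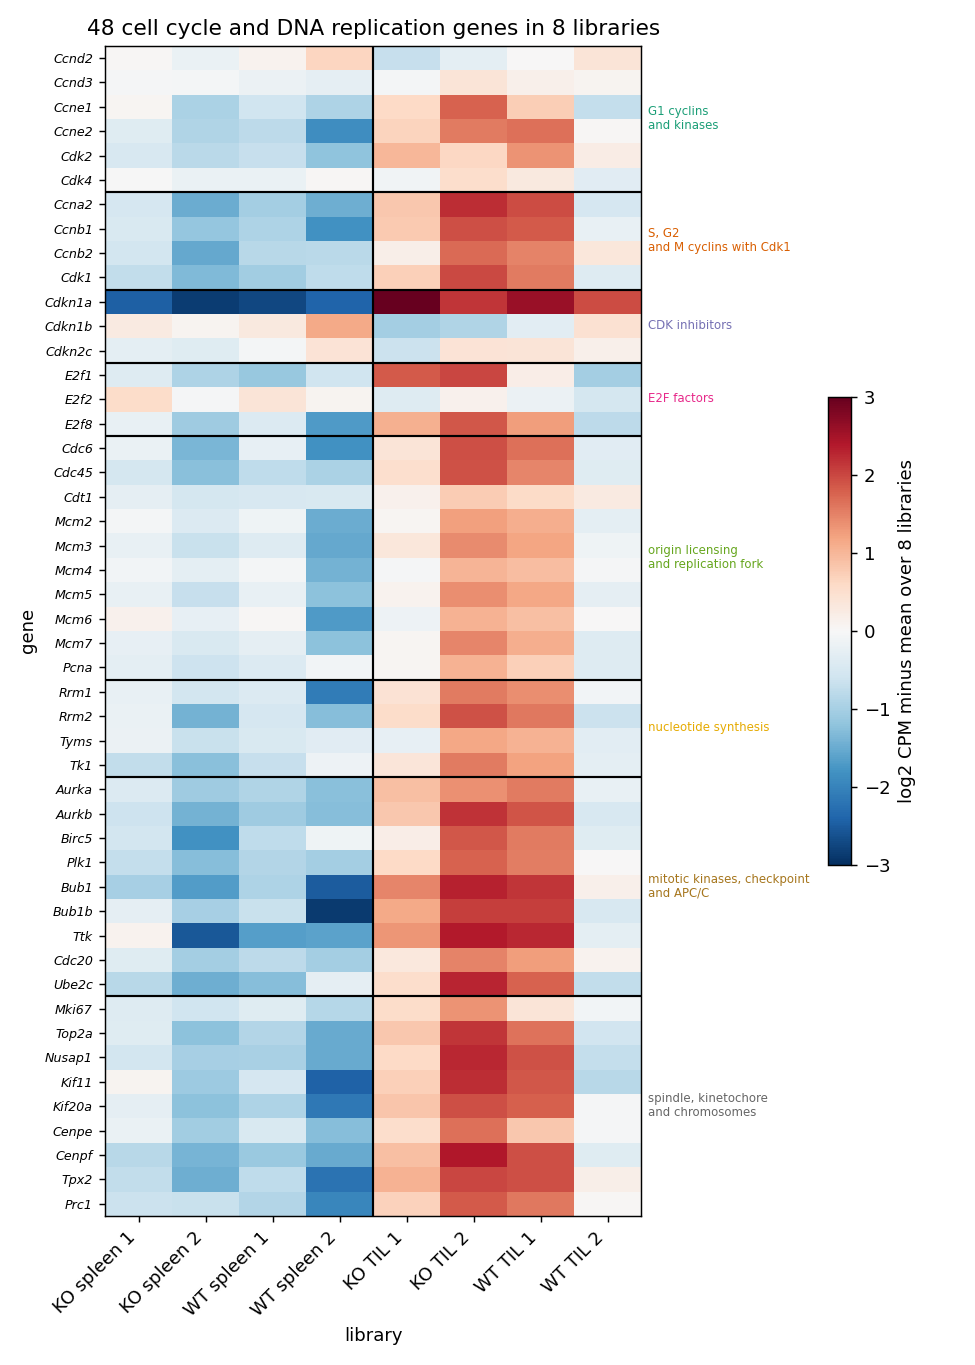
Heat map of the 48 genes (rows, grouped by role) in the 8 libraries (columns). Colour gives log2 CPM minus the gene's mean over the 8 libraries, clipped at 3 in either direction. KO TIL replicate 2 and WT TIL replicate 1 are red in most rows, whereas KO TIL replicate 1 and WT TIL replicate 2 are closer to the splenic libraries, except for Cdkn1a.

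The spread between TIL replicates ran with CD8 genes in both genotypes, but with melanoma and macrophage genes in WT TIL and against them in KO TIL. The replicate with the higher sum of the 48 genes had the lower melanoma sum in KO TIL (830.1 against 3201 CPM) and the higher melanoma sum in WT TIL (2078 against 1140.1 CPM). The same held for macrophage genes (1652 against 14542 CPM in KO TIL, 3080 against 528 CPM in WT TIL). CD8 genes were higher in that replicate in both genotypes (2222 against 406 CPM in KO TIL, 148 against 48.3 CPM in WT TIL), and their part in the spread was not tested. Cd3e, a subunit of the T cell receptor complex, was at 315.6 and 1023 CPM in KO TIL and 927.6 and 1427 CPM in WT TIL.

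Among splenic libraries the spread was smaller and took another form. KO spleen replicate 2 was below replicate 1 in 48 of 48 genes, by a median of 1.45-fold. WT spleen replicate 2 was below replicate 1 in 33 genes and above it in 15. The helicase subunits Mcm2 to Mcm7 and Rrm1 were lower there, as for Mcm6 with 336.4 and 101.4 CPM and Rrm1 with 152.8 and 46.8 CPM in WT spleen. Pcna (166.1 and 209.0 CPM), Birc5 (28.2 and 44.4 CPM) and Ube2c (18.8 and 38.2 CPM) were higher in replicate 2. Over all genes, the difference between the WT splenic replicates depended on exon length, with a median log2 ratio of replicate 2 over replicate 1 of 0.66 for genes under 1 kb, -0.37 for 4 to 8 kb and -0.44 for over 8 kb.

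Per length, Pcna and Mcm6 were among the 4 most abundant of the 48 genes in every library, and Cdk4 and Ccnd2 among the first 5 in every splenic library. Pcna, the sliding clamp of DNA polymerases, was at 96.6 and 189.5 CPM per kb in KO TIL, 152.1 and 70.9 in WT TIL, 75.4 and 60.3 in KO spleen and 69.2 and 87.1 in WT spleen. Mcm6, a subunit of the replicative helicase, was at 63.5 and 146.2 CPM per kb in KO TIL and 132.1 and 71.4 in WT TIL. These 2 genes did not differ in order beyond their replicate spread. At the other end, Cenpf and Cenpe, kinetochore proteins with long transcripts, were lowest in every TIL library, with 0.217 to 1.83 CPM per kb. In the splenic libraries Cenpf was lowest, while Ttk lay below Cenpe in KO spleen replicate 2 and WT spleen replicate 1. Mki67, whose protein is the Ki-67 marker of cycling cells, was also low per length, at 1.52 and 2.67 CPM per kb in KO TIL and 1.36 and 0.993 in WT TIL, against 7.17 to 47.4 CPM per kb in TIL for Top2a, the topoisomerase that untangles chromosomes.

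The comparison of tumor with spleen asked how eTreg cells in the tumor differ from those in the spleen of mice of the same genotype. In WT cells, 3 of the 48 genes rose in TIL at an adjusted p under 0.05 with more than 1 on the log2 scale, by the quasi-likelihood test of edgeR. These 3 were Cdkn1a, Bub1 and Tpx2, and none fell. They are 6.25% of the genes, close to the 5.97% called among all genes tested (4.1% higher and 1.87% lower), so the number of calls alone does not set these genes apart. The log2 fold changes, however, lay to one side, with 45 of 48 above 0 (48.1% of all genes) and a median of 1.69 against -0.04 over all genes. At an unadjusted p under 0.05 there were 27 higher and 0 lower, or 56.25%, where the share over all genes was 20.5% (10.4% higher and 10.1% lower). In 29 genes both WT TIL libraries lay above both WT splenic ones, which held for 25.1% of all genes, and in 1 gene, E2f2, both lay below (27% of all genes).

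In KO cells, 2 of the 48 genes rose in TIL, Cdkn1a and E2f1, and none fell, where 1.35% of all genes were called (0.803% higher and 0.543% lower). Log2 fold changes were above 0 for 45 of 48 (50.7% of all genes), with a median of 2.03 against 0.01. At an unadjusted p under 0.05, 37 genes were higher and 1, Cdkn1b, was lower, where 31% of all genes passed (17.4% higher and 13.7% lower). Groups did not overlap for 40 genes higher in TIL (30.6% of all genes) and 2 lower, Cdkn1b and Ccnd2 (32.9% of all genes). DESeq2's Wald test at the same thresholds called 22 genes in WT cells, where it called 9.91% of all genes, and 35 in KO cells, where it called 19.7%.

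**Figure D2:**
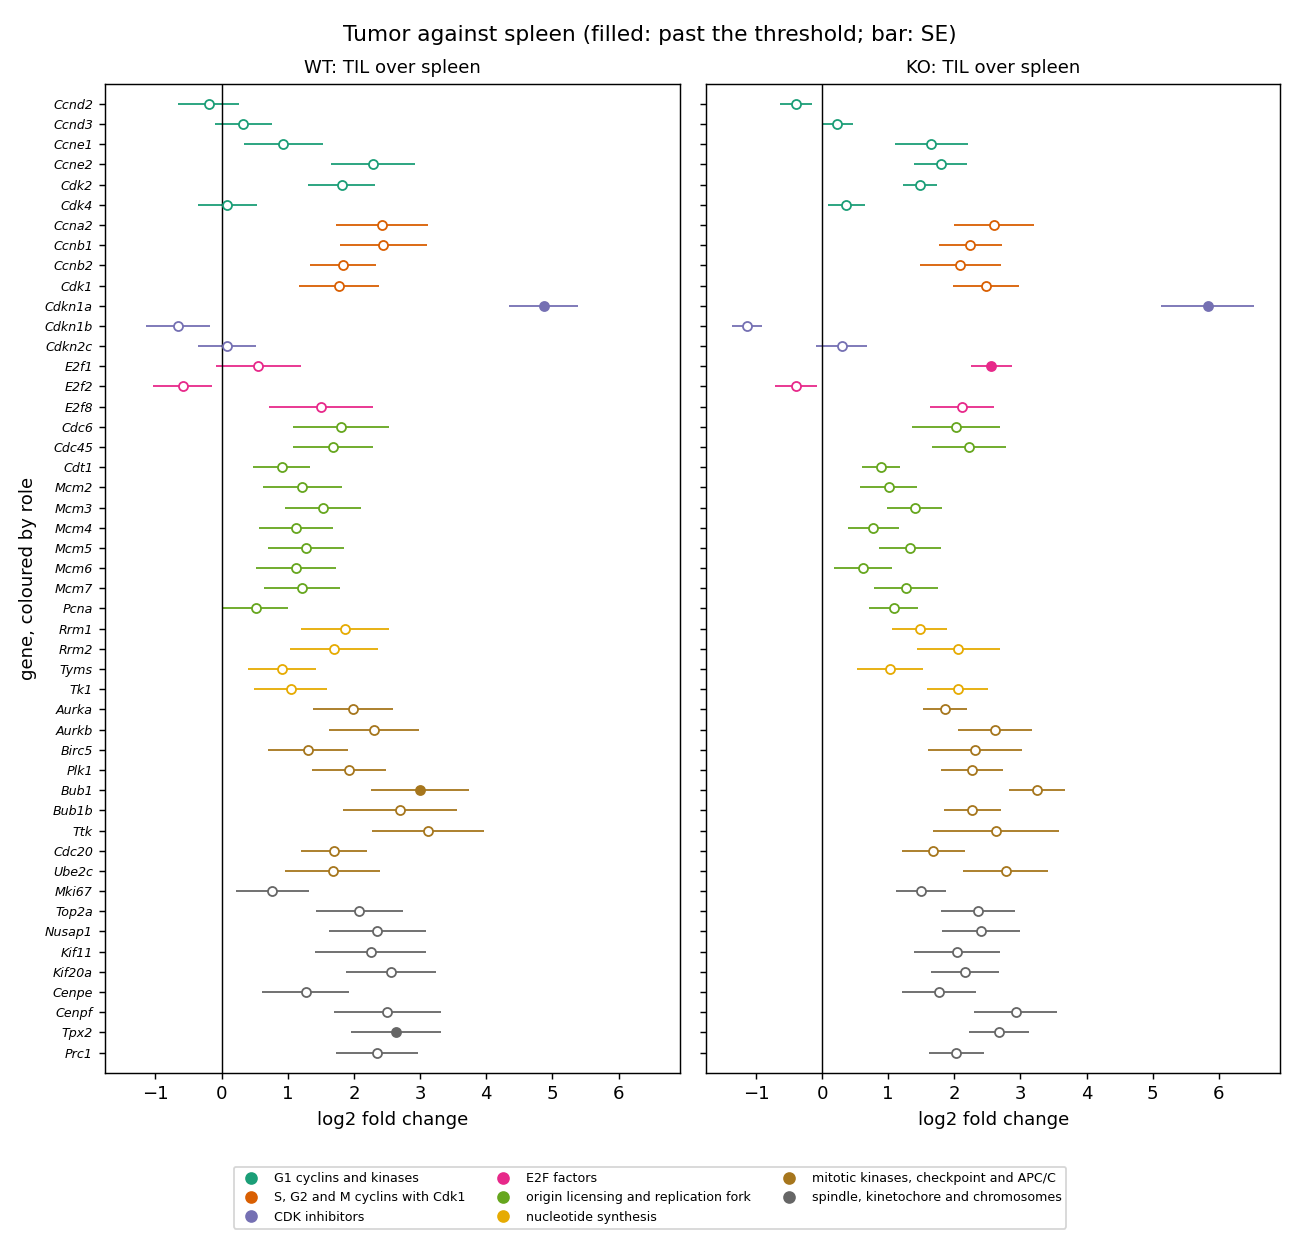
Log2 fold change of TIL over spleen for each of the 48 genes in WT (left) and KO (right) libraries, with bars for the standard error (SE) and colours for the role. Filled points passed the threshold (Cdkn1a, Bub1 and Tpx2 in WT, Cdkn1a and E2f1 in KO). In both genotypes 45 of 48 points lie to the right of 0, and Ccnd2, Cdkn1b and E2f2 to the left.

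Which WT TIL or KO TIL library was kept decided much of these counts. Without WT TIL replicate 2, 20 genes were called in WT cells and the median log2 fold change was 2.32, whereas without WT TIL replicate 1 only Cdkn1a was called and the median was 0.55. Omitting WT spleen replicate 1 gave 2 calls, and omitting WT spleen replicate 2 gave 1 call. In KO cells, 43 genes were called without KO TIL replicate 1 (median 2.46), 25 without KO TIL replicate 2 (median 1.28) and 0 without either splenic replicate.

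Cdkn1a, which encodes an inhibitor of cyclin-dependent kinases that p53 induces, had the largest log2 fold change of the 48 genes in both genotypes. Its level was 595.7 and 197.6 CPM in KO TIL, 269.6 and 172.0 CPM in WT TIL, 8.10 and 6.16 CPM in KO spleen, and 6.74 and 8.39 CPM in WT spleen. The TIL libraries lay far above the splenic ones, and KO TIL replicate 1, a low library for most of the 48 genes, was the highest for this one. Among TIL libraries its order was that of the macrophage sum (14542 and 1652 CPM in KO TIL, 3080 and 528 CPM in WT TIL). WT spleen replicate 2, at 8.39 CPM of Cdkn1a, had a macrophage sum of 2120 CPM. The part of macrophage transcripts in the Cdkn1a level was not tested. The log2 fold change of TIL over spleen was 4.87 in WT cells (standard error, SE, 0.53, adjusted p = 0.00138 by edgeR) and 5.83 in KO cells (SE 0.71, adjusted p = 0.0485 by edgeR). In WT cells the call held without each library in turn. Per length it was the most abundant of the 48 genes in KO TIL replicate 1 (268 CPM per kb) and WT TIL replicate 2 (77.4 CPM per kb), but not in KO TIL replicate 2 (88.9 CPM per kb, against 189.5 for Pcna) or WT TIL replicate 1 (121.3 CPM per kb, against 152.1 for Pcna), and it was at 2.77 to 3.77 CPM per kb in the splenic libraries.

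The other CDK inhibitors did not move this way. Cdkn1b, which restrains Cdk2 in resting cells, was at 17.0 and 18.2 CPM in KO TIL, 27.3 and 47.3 CPM in WT TIL, 41.5 and 36.4 CPM in KO spleen, and 42.2 and 75.005 CPM in WT spleen. KO TIL libraries were the lowest of the 8, and WT TIL overlapped with WT spleen. Its log2 fold change of TIL over spleen was -1.13 in KO cells (SE 0.23, adjusted p = 0.0652 by edgeR) and -0.66 in WT cells (adjusted p = 0.493 by edgeR). Cdkn2c, an inhibitor of Cdk4 and Cdk6, was at 20.4 and 42.0 CPM in KO TIL, 41.6 and 35.3 CPM in WT TIL, 26.1 and 24.7 CPM in KO spleen, and 30.5 and 42.0 CPM in WT spleen, with tissues overlapping in both genotypes.

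Among the mitotic kinases, checkpoint genes and partners of the anaphase-promoting complex (Cdc20, its activator, and Ube2c, its ubiquitin-conjugating enzyme), 8 of 9 had an unadjusted p under 0.05 in WT cells and 9 of 9 in KO cells, each higher in TIL. The share of all genes higher at that cutoff was 10.4% in WT cells and 17.4% in KO cells. Bub1, a kinase of the spindle checkpoint, was at 51.7 and 92.4 CPM in KO TIL, 83.0 and 20.7 CPM in WT TIL, 9.37 and 5.83 CPM in KO spleen, and 9.76 and 3.32 CPM in WT spleen. Every TIL library lay above every splenic one, and the range within WT TIL was wider than the distance of its lower library from the spleen. Its log2 fold change was 2.99 in WT cells (SE 0.74, adjusted p = 0.0418 by edgeR) and 3.25 in KO cells, just outside the threshold (SE 0.42, adjusted p = 0.0501 by edgeR). Without WT TIL replicate 1 the WT value was 1.68 (adjusted p = 0.493 by edgeR), and it was also not called without either WT splenic library. Aurka, a kinase of spindle poles, was at 38.7 and 53.5 CPM in KO TIL and 15.6 and 9.94 CPM in KO spleen, without overlap (log2 fold change 1.86, adjusted p = 0.0605 by edgeR).

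Of the spindle, kinetochore and chromosome genes, 7 of 9 were higher in TIL at an unadjusted p under 0.05 in WT cells (10.4% of all genes) and 9 of 9 in KO cells (17.4% of all genes). Tpx2, which nucleates spindle microtubules and activates Aurora A, was at 47.7 and 93.1 CPM in KO TIL, 88.4 and 26.1 CPM in WT TIL, 13.8 and 8.34 CPM in KO spleen, and 13.5 and 4.996 CPM in WT spleen. The TIL libraries lay above the splenic ones without overlap. The log2 fold change was 2.64 in WT cells (SE 0.68, adjusted p = 0.0496 by edgeR) and 2.67 in KO cells (SE 0.45, adjusted p = 0.0585 by edgeR). The WT call was lost with all 8 libraries in the fit, with genes of a mean of at least 50 counts, and without WT TIL replicate 1 or either WT splenic library. Prc1, which bundles microtubules of the spindle midzone, was at 81.6 and 27.7 CPM in WT TIL and 14.6 and 6.99 CPM in WT spleen, a log2 fold change of 2.35 (adjusted p = 0.0529 by edgeR). Kif20a, a motor of cell division, was at 66.3 and 18.8 CPM in WT TIL and 10.2 and 4.35 CPM in WT spleen, a log2 fold change of 2.56 (adjusted p = 0.0552 by edgeR), although 33.2% of its exon bases overlap Cdc23 on the opposite strand.

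Mki67 was a weaker member of this group. Its level was 15.3 and 26.8 CPM in KO TIL, 13.7 and 9.99 CPM in WT TIL, 8.10 and 6.95 CPM in KO spleen, and 8.17 and 5.78 CPM in WT spleen. The TIL libraries were above the splenic ones in both genotypes. The log2 fold change of TIL over spleen was 0.77 in WT cells (SE 0.56, adjusted p = 0.481 by edgeR) and 1.49 in KO cells (SE 0.37, adjusted p = 0.0813 by edgeR).

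The 3 cyclins of S, G2 and M phase with Cdk1, their kinase, were higher in TIL without overlap in both genotypes, and all 4 had an unadjusted p under 0.05 in each. Over all genes 25.1% in WT and 30.6% in KO cells were higher without overlap, and 10.4% and 17.4% were higher at that p. Ccnb1, the cyclin that drives entry into mitosis, was at 100.4 and 220.8 CPM in KO TIL, 205.8 and 50.02 CPM in WT TIL, 42.3 and 25.8 CPM in KO spleen, and 30.6 and 16.6 CPM in WT spleen. The TIL replicates lay further apart than the splenic ones in both genotypes. Its log2 fold change of TIL over spleen was 2.45 in WT cells (SE 0.66, adjusted p = 0.0572 by edgeR) and 2.24 in KO cells (SE 0.48, adjusted p = 0.0669 by edgeR).

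The S phase genes had smaller log2 fold changes. The 10 genes of origin licensing and the replication fork had a median of 1.22 in WT cells and 1.18 in KO cells. Of these, 3 and 6 of 10 were higher at an unadjusted p under 0.05. Over all genes 20.5% in WT cells and 31% in KO cells passed that cutoff (10.4% and 17.4% higher). The 4 genes of nucleotide synthesis had medians of 1.37 and 1.76. Pcna was at 231.7 and 454.9 CPM in KO TIL, 365.0 and 170.2 CPM in WT TIL, 180.9 and 144.7 CPM in KO spleen, and 166.1 and 209.0 CPM in WT spleen. The WT tissues overlapped, and the KO tissues did not. Its log2 fold change was 0.51 in WT cells (adjusted p = 0.612 by edgeR) and 1.08 in KO cells (adjusted p = 0.135 by edgeR).

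The G1 genes split. EdgeR's test called none of them. DESeq2 called Cdk2 and the E cyclin Ccne2 higher in TIL in both genotypes, and the E cyclin Ccne1 in KO cells only. It called 9.91% of all genes in WT cells and 19.7% in KO cells. Cdk2, the partner of E cyclins, was at 95.0 and 73.8 CPM in KO TIL, 121.9 and 55.7 CPM in WT TIL, 34.1 and 27.3 CPM in KO spleen, and 29.9 and 20.8 CPM in WT spleen. All TIL libraries lay above all splenic ones, with a log2 fold change of 1.81 in WT cells (adjusted p = 0.0655 by edgeR) and 1.48 in KO cells (adjusted p = 0.0591 by edgeR). The D cyclins and their kinase, which act earlier, were near 0 on that scale. Ccnd2 had log2 fold changes of -0.19 and -0.39 in WT and KO cells, Ccnd3 0.33 and 0.23, and Cdk4 0.09 and 0.37, and none of these passed.

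The E2F factors differed among themselves. E2f1, an activator of S phase genes, was at 35.8 and 39.7 CPM in KO TIL, 11.5 and 4.93 CPM in WT TIL, 7.67 and 5.27 CPM in KO spleen, and 4.55 and 6.60 CPM in WT spleen. The KO TIL replicates were close to each other and above the other 6 libraries, which overlapped. The log2 fold change of TIL over spleen was 2.56 in KO cells (SE 0.31, adjusted p = 0.0485 by edgeR) and 0.55 in WT cells (SE 0.64, adjusted p = 0.678 by edgeR). E2f1 mRNA holds a stretch of 200 nt with 81.5% GC. Over all genes, those with 80 to 85% GC in such a stretch had medians of 0.38 in KO and -0.71 in WT cells. The part of GC content in the E2f1 values was not tested. E2f8, a repressor that acts late in S phase, had log2 fold changes of 1.50 in WT and 2.11 in KO cells, and E2f2 of -0.59 and -0.39, all outside the threshold.

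**Figure D3:**
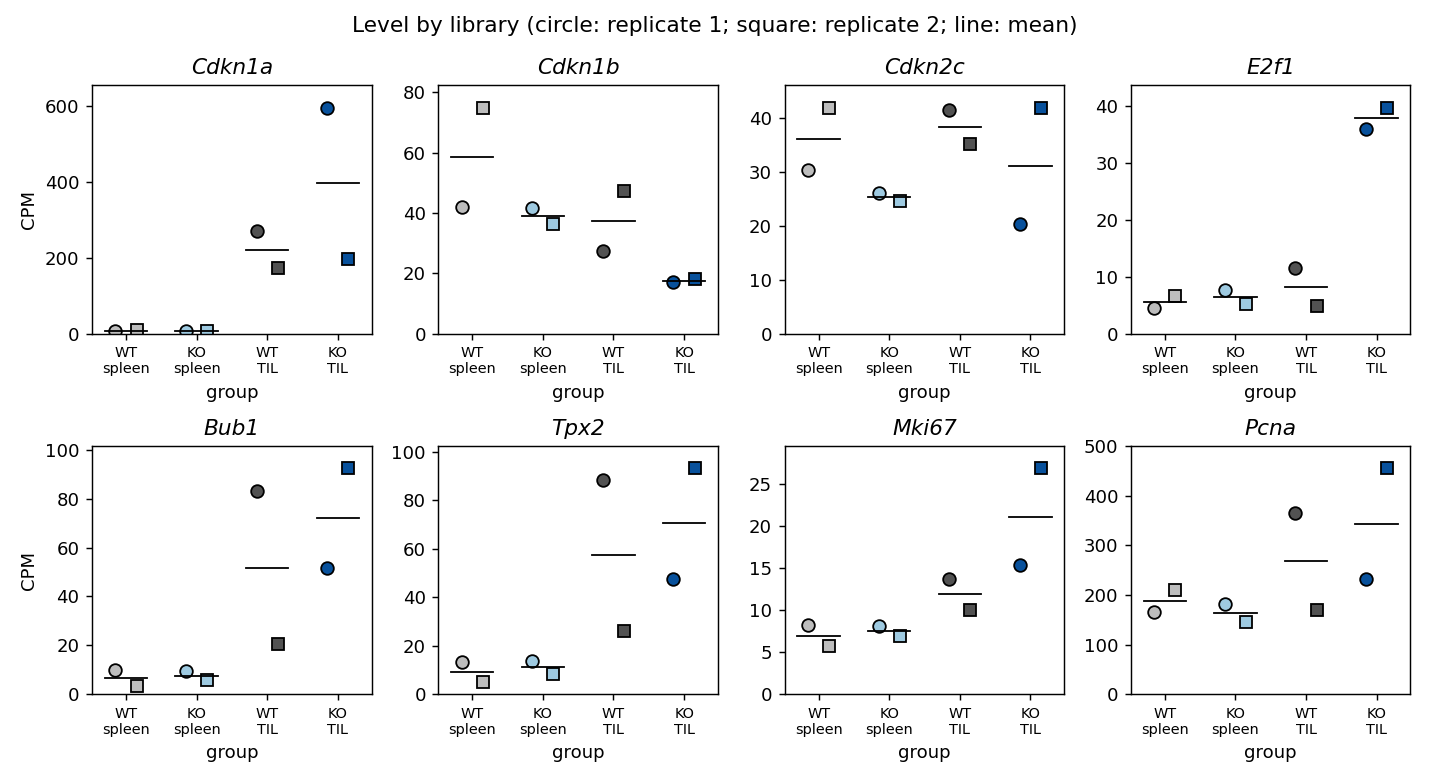
Level in CPM of 8 of the genes in each library (circle, replicate 1, and square, replicate 2) with the group mean as a line, on axes that start at 0. Cdkn1a is high in all TIL libraries, E2f1 in KO TIL only, with 35.8 and 39.7 CPM, and the replicates of WT TIL and of KO TIL lie apart for Bub1, Tpx2 and Pcna.

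The balance between mitotic and S phase genes also differed with tissue, in 3 of the 4 TIL libraries. The 22 G2 and M genes summed to 1208 and 2975 CPM in KO TIL, 2434 and 613 CPM in WT TIL, 526 and 306 CPM in KO spleen, and 398.5 and 320.3 CPM in WT spleen. Divided by the sum of the 14 S phase genes of the same library, this gave 0.605 and 0.657 in KO TIL, 0.626 and 0.386 in WT TIL, 0.319 and 0.246 in KO spleen, and 0.261 and 0.388 in WT spleen. WT TIL replicate 2 lay level with WT spleen replicate 2, so the WT tissues overlapped and the KO tissues did not. WT spleen replicate 2 was also the library in which genes of long exon length were low. The part of exon length in its ratio was not tested.

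**Figure D4:**
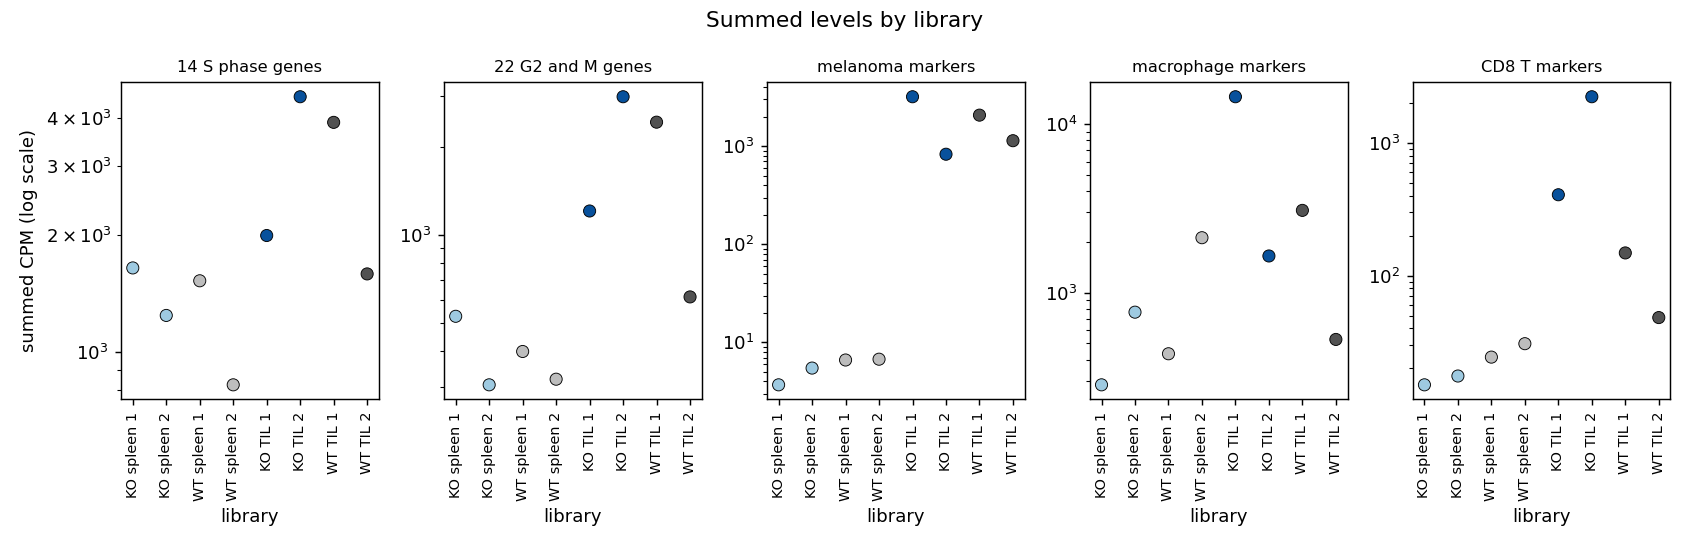
Summed CPM per library, on log axes, of the 14 S phase genes, the 22 G2 and M genes, and the melanoma, macrophage and CD8 T cell markers, with KO in blue, WT in grey and spleen in the lighter shade. KO TIL replicate 2 and WT TIL replicate 1 are highest for both gene sums, while melanoma and macrophage sums are highest in KO TIL replicate 1.

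Beyond the 48 genes, other genes of these pathways gave few calls and mostly higher values in TIL. Of 74 further mitosis genes, 5 rose in TIL of WT cells (6.76%, near the 5.97% of all genes called) and 2 in KO cells (2.70%, against 1.35% of all genes). Their medians were 1.68 and 2.06 on the log2 scale, and at an unadjusted p under 0.05 there were 46 and 60 higher, where 10.4% and 17.4% of all genes were. Of 55 further DNA replication genes 0 were called by edgeR's test in either genotype (medians 0.89 and 1.19), with 12 and 30 higher at an unadjusted p under 0.05 (10.4% and 17.4% of all genes) and 7 and 23 called by DESeq2 (9.91% and 19.7% of all genes). Foxm1, the factor that activates G2 and M genes, was at 28.0 and 45.7 CPM in KO TIL, 38.9 and 8.88 CPM in WT TIL, and 2.39 to 3.29 CPM in spleen, and passed in KO cells (log2 fold change 3.67, adjusted p = 0.0374 by edgeR). Iqgap3, a scaffold protein of dividing cells, was at 27.5 and 18.9 CPM in KO TIL and 1.25 and 1.60 CPM in KO spleen, and also passed (log2 fold change 4.05, adjusted p = 0.0374 by edgeR).

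Among 19 tested targets of p53, Plk2 and Pmaip1 rose in WT TIL, while Sesn1 and Trp53inp1 were lower in KO TIL than in KO spleen. Plk2, a kinase induced by stress, was at 115.6 and 33.4 CPM in WT TIL and 4.70 and 3.96 CPM in WT spleen (log2 fold change 4.11, adjusted p = 0.00623 by edgeR). In KO cells Plk2 was at 297.8 and 77.5 CPM in TIL and 2.86 and 1.88 CPM in spleen. Among TIL libraries the order of Plk2 was that of the macrophage sum (14542 and 1652 CPM in KO TIL, 3080 and 528 CPM in WT TIL). The part of macrophage transcripts in the Plk2 level was not tested. Pmaip1, which promotes cell death, was at 199.3 and 248.1 CPM in WT TIL and 32.2 and 15.1 CPM in WT spleen (log2 fold change 3.25, adjusted p = 0.00662 by edgeR). Its KO levels were 226.2 and 153.6 CPM in TIL and 45.6 and 42.7 CPM in spleen, and its order among TIL libraries was not that of the macrophage sum. Sesn1 had a log2 fold change of -1.93 in KO cells (adjusted p = 0.0581 by edgeR) and Trp53inp1 of -1.62 (adjusted p = 0.0633 by edgeR), both outside the threshold. Over the 19 genes the median was 0.66 in WT cells and 0.16 in KO cells, far below the values of Cdkn1a. Replication-dependent histone genes, tested in 38 and 36 cases, had medians of -0.35 in WT and 1.07 in KO cells with 0 calls by edgeR's test. Over all genes, those under 1 kb of exon had medians of -0.76 in WT and -0.16 in KO cells. The part of exon length in the histone values was not tested. At an unadjusted p under 0.05, 1 histone gene was higher and 2 were lower in WT cells (7.89%, against 20.5% of all genes). In KO cells 5 were higher and 1 lower (16.7%, against 31% of all genes). DESeq2 called 0 in WT and 1 in KO cells, against 9.91% and 19.7% of all genes. Cdkn1c, an inhibitor related to Cdkn1b, and Hist2h4 were the genes of these lists with the smallest p among those lower in WT TIL (log2 fold changes of -2.53 and -2.12, adjusted p = 0.0845 and 0.137 by edgeR).

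The markers listed above also differed between tissues. EdgeR's test called 5.97% of all genes in WT cells and 1.35% in KO cells, and DESeq2 9.91% and 19.7%. The shares higher at an unadjusted p under 0.05 were 10.4% and 17.4%. In WT cells all 6 melanoma genes rose in TIL by edgeR's test, and 0 of 7 macrophage and 0 of 2 CD8 genes passed. Of these lists 6, 1 and 2 were higher in WT TIL at an unadjusted p under 0.05, and DESeq2 called 6, 1 and 1. In KO cells 2 of 6 melanoma, 0 of 7 macrophage and 0 of 2 CD8 genes passed by edgeR's test, with 6, 4 and 2 higher at an unadjusted p under 0.05 and 6, 6 and 2 called by DESeq2. Of the other marker lists, 2 of 3 neutrophil genes and 1 of 4 NK genes rose in KO TIL by edgeR's test, and 1 of 3 NK genes and 1 of 3 fibroblast genes tested in WT TIL. The 3 red cell genes were higher in KO TIL at an unadjusted p under 0.05 with 0 called by edgeR (3 by DESeq2), and no B cell gene rose in either genotype. The neutrophil sum was 219.9 and 165.4 CPM in KO TIL, 51.5 and 3.31 CPM in WT TIL and 0 to 15.3 CPM in spleen. The NK sum was 73.8 and 160.5 CPM in KO TIL, 10.9 and 2.23 CPM in WT TIL and 9.86 to 15.5 CPM in spleen, so it was above the splenic range in KO TIL only. The part of these transcripts in the log2 fold changes of the 48 genes was not tested.

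The comparison of KO with WT libraries asked what changes in eTreg cells without Blimp1, and in TIL 0 of the 48 genes passed edgeR's test. Neither did any other gene, so the share called was 0% over all 15935 genes. At an unadjusted p under 0.05 there were 1 higher, E2f1, and 1 lower, Cdkn1b, or 4.17%, below the 9.87% of all genes (6.34% higher and 3.53% lower). DESeq2's Wald test called 1 of the 48, E2f1, where it called 4.68% of all genes. Log2 fold changes were above 0 for 44 of 48 genes (53.4% of all genes), with a median of 0.36 against 0.04. Groups did not overlap for 2 higher, E2f1 and Mki67, and 2 lower, Cdkn1b and Ccnd2, or 4.17% in each direction, against 18% and 19.4% of all genes.

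The sign of that median rested on single libraries. It was 0.79 without KO TIL replicate 1, -0.34 without KO TIL replicate 2, 1.32 without WT TIL replicate 1 and -0.24 without WT TIL replicate 2. The difference between the genotypes was thus smaller than the spread between replicates, which reached 2.18-fold and 2.81-fold at the median gene. Marker genes of cell types differed along with genotype in TIL. Of 8 Treg and CD4 genes, which mark the sorted cells themselves, 6 were lower in KO by DESeq2's test, Foxp3 included. That test called 4.68% of all genes. CD8 genes were at 406 and 2222 CPM in KO TIL against 148 and 48.3 CPM in WT TIL. The part of these differences in the values of the 48 genes was not tested.

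E2f1 was the clearest single gene, with 35.8 and 39.7 CPM in KO TIL against 11.5 and 4.93 CPM in WT TIL. The KO values were close and both WT values lay below them. The log2 fold change was 2.20 (SE 0.50, adjusted p = 0.267 by edgeR, adjusted p = 0.00562 by DESeq2) and lay between 1.71 and 2.93 with each library left out. E2f1 mRNA holds a stretch of 200 nt with 81.5% GC, and the 728 tested genes with 80 to 85% GC in such a stretch had a median of 1.04 on the log2 scale in this comparison. In the same range, Cdkn2c was at -0.30 and E2f2 at 0.22. The part of GC content in the E2f1 value was not tested.

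Cdkn1b, with 17.0 and 18.2 CPM in KO TIL and 27.3 and 47.3 CPM in WT TIL, had a log2 fold change of -1.09 (SE 0.39, adjusted p = 0.464 by edgeR). Ccnd2, a D cyclin of lymphocytes, was at 262.8 and 343.7 CPM in KO TIL and 423.0 and 548.4 CPM in WT TIL, a log2 fold change of -0.68 (SE 0.33, adjusted p = 0.594 by edgeR). In both genes the WT libraries lay above the KO ones without overlap. Mki67 lay the other way, with 15.3 and 26.8 CPM in KO against 13.7 and 9.99 CPM in WT (log2 fold change 0.83, SE 0.44, adjusted p = 0.643 by edgeR).

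The remaining genes overlapped between genotypes in TIL. Ccne1, a cyclin of the G1 to S transition, was at 22.7 and 50.6 CPM in KO TIL and 24.9 and 9.15 CPM in WT TIL (log2 fold change 1.11, adjusted p = 0.678 by edgeR). Cdkn1a had a log2 fold change of 0.84 (adjusted p = 0.757 by edgeR), Cdkn2c of -0.30 (adjusted p = 0.931 by edgeR) and Pcna of 0.36 (adjusted p = 0.933 by edgeR). For Cdkn1a the value was -0.16 without KO TIL replicate 1. By role, the median was 0.29 for origin and fork genes, 0.34 for nucleotide synthesis, 0.38 for mitotic kinases and checkpoint genes, and 0.58 for spindle and kinetochore genes.

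**Figure D5:**
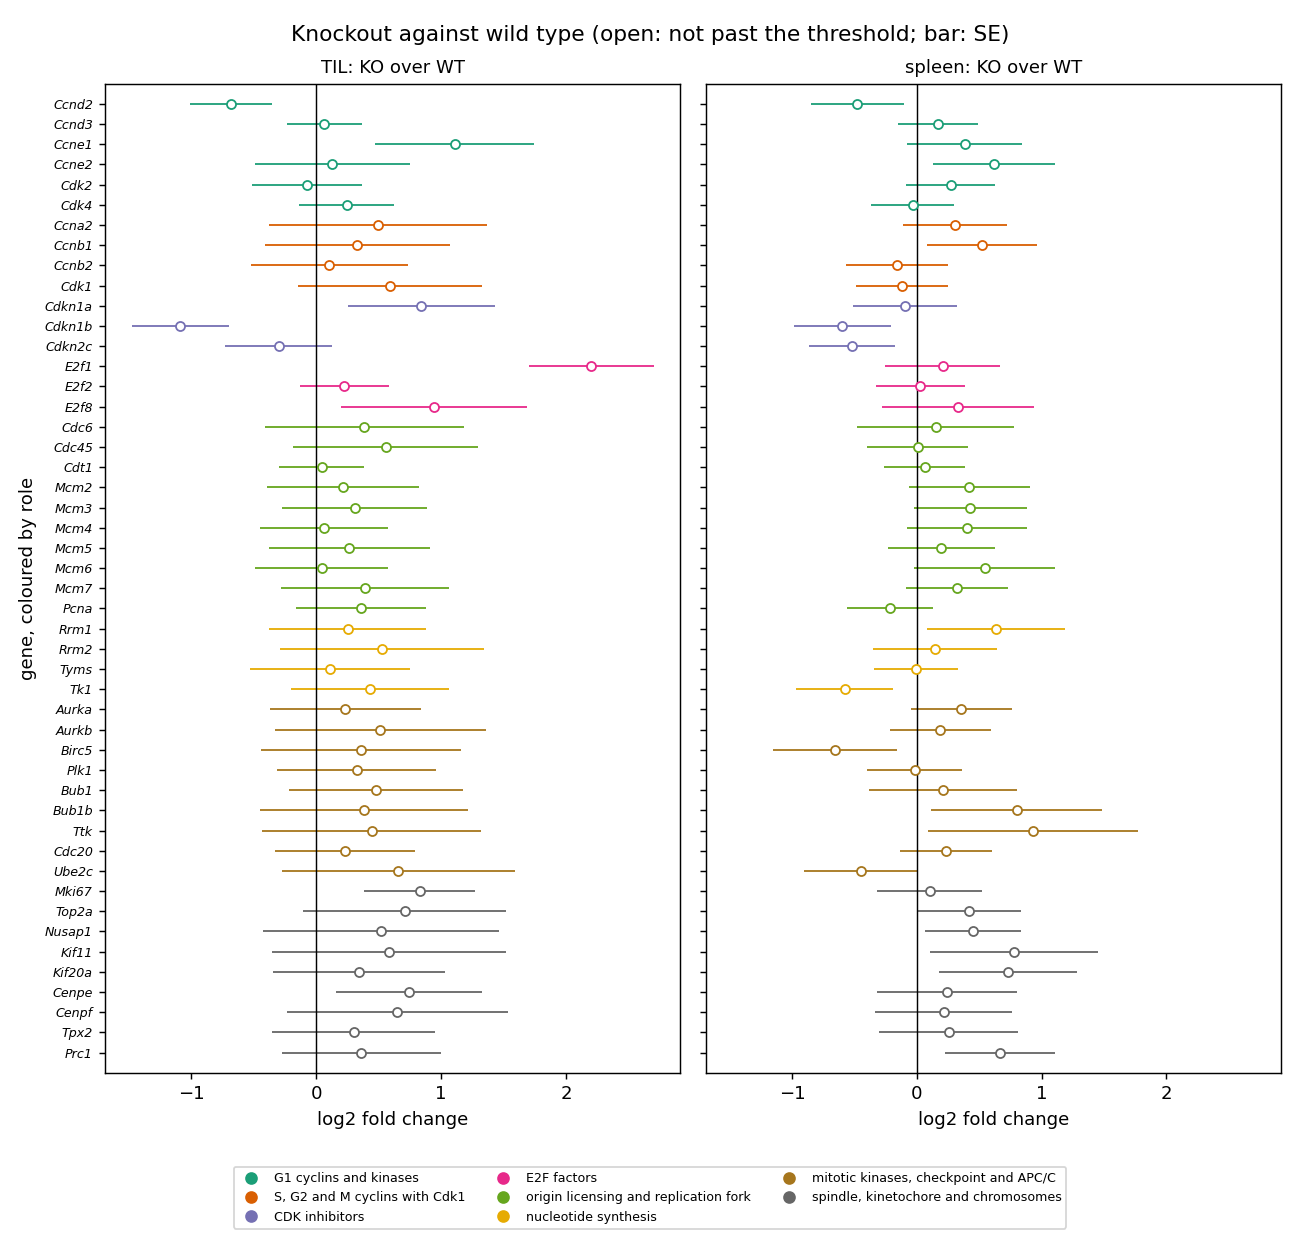
Log2 fold change of KO over WT for each of the 48 genes in TIL (left) and spleen (right), with bars for the standard error (SE) and colours for the role. No point is filled, since none passed the threshold. In TIL, E2f1 lies farthest to the right at 2.20 and Cdkn1b farthest to the left at -1.09.

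In spleen, 0 of the 48 genes differed between KO and WT by edgeR's test, where the share over all genes was 0%, and DESeq2 called 0 (0.416% of all genes). At an unadjusted p under 0.05 there were 0 of 48 (2.95% of all genes). The median log2 fold change was 0.21 against -0.02, with 35 of 48 above 0 (48.7% of all genes). With 1 library left out, the median lay between -0.12 and 0.62, so its sign rested on single libraries. Over all genes, the median was -0.61 under 1 kb of exon, where none of the 48 lie, 0.20 for 4 to 8 kb and 0.19 for over 8 kb. The 17 and 8 of the 48 genes in the last 2 ranges had medians of 0.32 and 0.23. The 21 genes of 2 to 4 kb had 0.15, against -0.0005 over all genes. The part of exon length was not tested. Groups did not overlap for 2 genes higher in KO, Prc1 and Ccnd3 (16.4% of all genes), and 4 lower, Cdkn1b, Cdkn2c, Tk1 and Ccnd2 (15.7% of all genes). Prc1 was at 17.3 and 17.1 CPM in KO against 14.6 and 6.99 CPM in WT spleen (log2 fold change 0.67, adjusted p = 0.878 by edgeR), and Tk1, thymidine kinase, at 18.5 and 12.95 CPM in KO against 19.0 and 27.7 CPM in WT spleen (log2 fold change -0.58, adjusted p = 0.878 by edgeR).

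The inhibitors and Pcna had small values in the spleen. Cdkn1b, with 41.5 and 36.4 CPM in KO against 42.2 and 75.005 CPM in WT, had a log2 fold change of -0.60 (adjusted p = 0.878 by edgeR), and Cdkn2c, with 26.1 and 24.7 CPM in KO against 30.5 and 42.0 CPM in WT, of -0.52 (adjusted p = 0.878 by edgeR). In both genes the KO libraries were the lower ones, narrowly so against WT replicate 1. Cdkn1a, Mki67 and Pcna overlapped between genotypes, with log2 fold changes of -0.09, 0.10 and -0.21. Birc5, an inhibitor of apoptosis that acts in mitosis, was at 33.0 and 13.6 CPM in KO against 28.2 and 44.4 CPM in WT (log2 fold change -0.65), and Kif20a at 16.0 and 8.24 CPM in KO against 10.2 and 4.35 CPM in WT (log2 fold change 0.73).

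Leaving out WT spleen replicate 1 gave 12 calls in the spleen, all against WT spleen replicate 2 alone, and these were Ccne2, Ccnb1, Mcm2, Mcm3, Mcm4, Mcm6, Rrm1, Bub1b, Kif11, Kif20a, Tpx2 and Prc1. WT spleen replicate 2 is the library with lower counts for long genes, and the part of exon length in these 12 calls was not tested. Histone genes lay the other way, with 0 of 34 above 0 and a median of -1.04. Their sum was 249.3 CPM in WT spleen replicate 2 and 77.1 to 104.7 CPM in the other splenic libraries. Over all genes, those under 1 kb of exon had a median of -0.61 in this comparison. The part of exon length in the histone values was not tested. None of the further lists held a call in either comparison of genotypes by edgeR's test, where 0 genes passed in all.

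Among the further lists, the genes with the smallest p in the comparisons of KO with WT did not pass. In TIL these were E2f5 and Rb1, a repressor and a pocket protein that hold back E2F targets, with log2 fold changes of 1.36 and 1.37 (adjusted p = 0.401 and 0.446 by edgeR), and Sesn1 and Trp53inp1, with -1.42 and -1.55 (adjusted p = 0.278 and 0.301 by edgeR). Rb1 was at 40.0 and 19.3 CPM in KO TIL and 12.9 and 10.02 CPM in WT TIL, without overlap. In spleen they were Racgap1 and Cdc25b, higher in KO by 0.95 and 0.76, and Cdkn1c and Hist1h4c, at -1.90 and -1.61, each on the log2 scale (adjusted p = 0.878 for each by edgeR). For mitosis genes the median was 0.43 in TIL and 0.16 in spleen, and for DNA replication genes 0.33 and 0.12.

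The interaction term, which asks whether the KO to WT difference was larger in TIL than in spleen, was not past the threshold for any of the 48 genes (0% of all 17870 genes, and 0 of the 48 by DESeq2, which called 1.85% of all genes). E2f1 alone had an unadjusted p under 0.05 (7.83% of all genes), with an interaction of 1.99 on the log2 scale (SE 0.68, adjusted p = 0.496 by edgeR). The 773 genes with 80 to 85% GC in a stretch of 200 nt, a range that holds E2f1, had a median interaction of 1.12. In that range Cdkn2c was at 0.21 and E2f2 at 0.19. The part of GC content in the E2f1 interaction was not tested. The median over the 48 genes was 0.14, against 0.07 over all genes. Cdkn1a (0.93), Tk1 (1.001), Mki67 (0.72), Ube2c (1.09) and Birc5 (0.998) followed by p, with adjusted p from 0.826 to 0.867 by edgeR's test, and Cdkn1b was at -0.50, Cdkn2c at 0.21 and Pcna at 0.56. In the further lists the smallest p were those of Trp53inp1 (-2.37) and Sesn1 (-1.70), with adjusted p = 0.439 and 0.470 by edgeR, and, among positive values, of Hist1h3i (2.72) and Rb1 (1.37), with adjusted p = 0.620 and 0.630 by edgeR. The 4 comparisons of groups share libraries, so their values are given side by side and not as independent evidence.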

How the data were processed

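Counts per gene were deposited by the authors for each of the 8 libraries, made from ultra-low-input RNA-seq reads that, per the submitters' processing notes, went through Trimmomatic 0.36, STAR 2.5.2b on GRCm38 and featureCounts of Subread 1.5.2. Whether counting used strand is not given in the sources used here, so genes that overlap another gene on the opposite strand are uncertain. A deposited table of normalized counts was not used.

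The 48 genes and the further lists were chosen with earlier results of these data known. Each comparison of groups was fitted over all genes of its 4 libraries (8 for the interaction) with edgeR 4.0.16 in R 4.3.3, using TMM scaling, filterByExpr and the quasi-likelihood F test, and p-values were adjusted over all genes tested by the Benjamini-Hochberg method. A gene was called at an adjusted p under 0.05 with an absolute log2 fold change over 1. The standard error is the size of the log2 fold change divided by the square root of F. The code was tested on simulated data. Alternatives were the Wald test of DESeq2 1.42.0, its size factors, all 8 libraries, other filters, no fold change threshold, the replicate number as a block, and each library left out.

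A floor of 3 counts reflects counting error alone, as no molecular identifiers are described, so PCR copies of 1 molecule may be counted apart. Values in every library are given for genes called, for the 6 with the smallest p in each comparison where fewer than 6 were called, and for Cdkn1a, Cdkn1b, Cdkn2c, Mki67 and Pcna. In further lists, up to 2 genes in each direction with the smallest p in each comparison are named. GC content is the highest share in any window of 200 nt, taken every 20 nt, of a gene's longest transcript in GENCODE M21.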

Additional observations from a re-analysis of the deposited data

How the results depend on the processing

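Of the 48 genes, 0 were called in the interaction under every alternative tried, and in spleen 0 were called under every alternative except without WT spleen replicate 1 (12 genes), so leaving out 1 library gave 0 to 12 there. In TIL, KO against WT, 1 gene was called by DESeq2, 1 without a filter on low counts, 1 with the replicate block and 0 under each other alternative. For WT TIL against spleen, where 3 were called, DESeq2 gave 22, all 8 libraries 1, no filter 27, the replicate block 16 and leaving out 1 library 1 to 20, with a median log2 fold change of 0.55 to 2.32. For KO TIL against spleen, where 2 were called, DESeq2 gave 35, all 8 libraries 4, no filter 34, the replicate block 1 (Cdkn1a, with E2f1 lost) and leaving out 1 library 0 to 43, with a median of 1.28 to 2.46. The cause of these differences was not tested. When 1 library was left out, the lone library was taken to vary like the other group.

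The replicate numbers name samples and are not stated to mark shared animals. Deviations of same-numbered libraries had a correlation of 0.286 in TIL, 0.203 in spleen, -0.015 in WT and -0.258 in KO cells. Crossing the numbers in KO cells, an alternative chosen after seeing the data, gave 35 calls. With 2 libraries a group the design limits precision more than depth does, since every one of the 48 genes was above the floor. DESeq2's interaction shifted the median of all genes to 0.21.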
